A study of Mus musculus with 8 samples.

Results

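Igf1, Igf2, Igfbp2, Igfbp3, Igfbp4, Igfbp5 and Igfbp6 encode both insulin-like growth factors (IGFs) and 5 of their binding proteins. They were followed through all probe sets annotated to them, which were 12 of the 12488 on the Affymetrix MG_U74Av2 array and covered all 7 genes. The tissue was the gonad of mouse embryos, hand-picked by stage from their morphology, and RNA of each group was measured on 1 array. The 8 groups were Wnt4 knock-out (KO) and wild-type (WT) males at embryonic day 14.5 (E14.5), KO and WT females at E14.5, and the same KO and WT males and females at E12.5. No group had a replicate. The sources used here do not give the mouse strain, the Wnt4 allele or the number of embryos behind each RNA sample. Precision is limited by the number of arrays.

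IGF1 and IGF2 are secreted peptides that promote growth through the receptor IGF1R, while IGF2R binds IGF2 and removes it. IGF-binding proteins hold the peptides outside the cell, prolong their life, and can either withhold them from the receptor or deliver them to it. In the mouse, receptors of the insulin family are needed for the early gonad to become a testis, and Wnt4 encodes a secreted Wnt ligand required for normal ovary development.

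Igfbp2 and Igfbp3 carried the largest KO minus WT differences of the 7 genes, so the 250 bases before their annotated starts are printed here from the RefSeq table of build GRCm38.p6, each on the strand of its gene. The Igfbp2 window is chr1:72824230-72824479 on the plus strand, and the Igfbp3 window is chr11:7213924-7214173 on the minus strand. In the Igfbp2 line capitals mark GGGCGG, the core of a site bound by Sp1. In the Igfbp3 line they mark TATATA, a variant of the box that helps to place the start of transcription.
Igfbp2: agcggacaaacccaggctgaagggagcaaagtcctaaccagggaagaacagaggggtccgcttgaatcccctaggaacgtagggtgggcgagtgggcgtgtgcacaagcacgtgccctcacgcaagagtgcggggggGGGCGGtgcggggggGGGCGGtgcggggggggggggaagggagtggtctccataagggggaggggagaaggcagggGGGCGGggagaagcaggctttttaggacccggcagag
Igfbp3: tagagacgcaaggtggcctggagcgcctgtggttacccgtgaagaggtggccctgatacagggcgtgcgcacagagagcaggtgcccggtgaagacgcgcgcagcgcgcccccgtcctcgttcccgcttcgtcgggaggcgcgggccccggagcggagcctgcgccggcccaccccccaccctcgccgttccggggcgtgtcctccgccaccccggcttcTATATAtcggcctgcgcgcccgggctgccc
RefSeq gave a window for 7 of the 7 genes and 11 windows in all, since Igf2 and Igfbp2 had several starts. For Igfbp2 the more upstream one is shown. GGGCGG began 113, 98 and 37 bases before the Igfbp2 start, and TATATA, which reads the same on both strands, began 30 bases before the Igfbp3 start. The windows were 67.2% G or C for Igfbp2 and 73.2% for Igfbp3. CTTTGA and CTTTGT, cores of the sites bound by TCF and LEF factors of Wnt signalling, were searched on both strands, as were AAGGTCA, bound by Nr5a1, and TATAAA. None of these 4 motifs was in either printed window. No motif hit overlapped another. Of all 32851 promoter windows of this length, 32.7% held GGGCGG, 5.25% TATATA, 13.8% CTTTGA, 16.5% CTTTGT, 4.08% AAGGTCA and 12.4% TATAAA.

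Values below are log2 signals after each array was centred on a common median, and differences are log2. Values under a floor of 6.99, the 40th percentile of all values, were taken as too low to measure. For fits and differences they were set to 6.99. Across probe sets, the 2 E14.5 male arrays had a Pearson correlation of 0.883 to 0.907 with the other 6, which among themselves had 0.979 to 0.997. For comparisons of stage or sex that use them, a shift of these arrays as a whole and true changes of the later testis cannot be told apart. The gonad genes Nr5a1, Wt1, Gata4 and Lhx9 were above the floor on all 8 arrays. Wnt4, the targeted gene, was at 9.19 in KO and 9.42 in WT males at E14.5, 8.32 in KO and 9.45 in WT females at E14.5, 8.34 in KO and 9.26 in WT males at E12.5, and 8.59 in KO and 10.19 in WT females at E12.5. The sources used here do not state whether its probe set falls inside the deleted stretch. Xist was at 7.10 to 8.13 on the female arrays, against 4.07 to 4.79 on the male ones. The Y-linked Eif2s3y was at 7.63 on the E14.5 array labelled WT female, against 4.86 to 6.04 on the other female arrays and 6.91 to 8.12 on the male arrays. The summed linear signal of 6 Leydig and steroidogenic markers was 2393 in the KO female at E14.5 and 4958 on the E14.5 array labelled WT female, so the main results that rest on this array are given with and without it.

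Of the 12 probe sets, 10 were above the floor on at least 2 arrays and were fitted together with 8442 others. Igf2 98622_at, at 5.94 to 6.62, and Igfbp4 101570_at, at 4.66 to 5.32, were under the floor on all 8 arrays. For the other 10, the 8 arrays were all above the floor. The only probe set for Igfbp5, 100566_at, is annotated to Tmem119 as well, so its signal cannot be assigned to either gene.

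**Figure D1:**
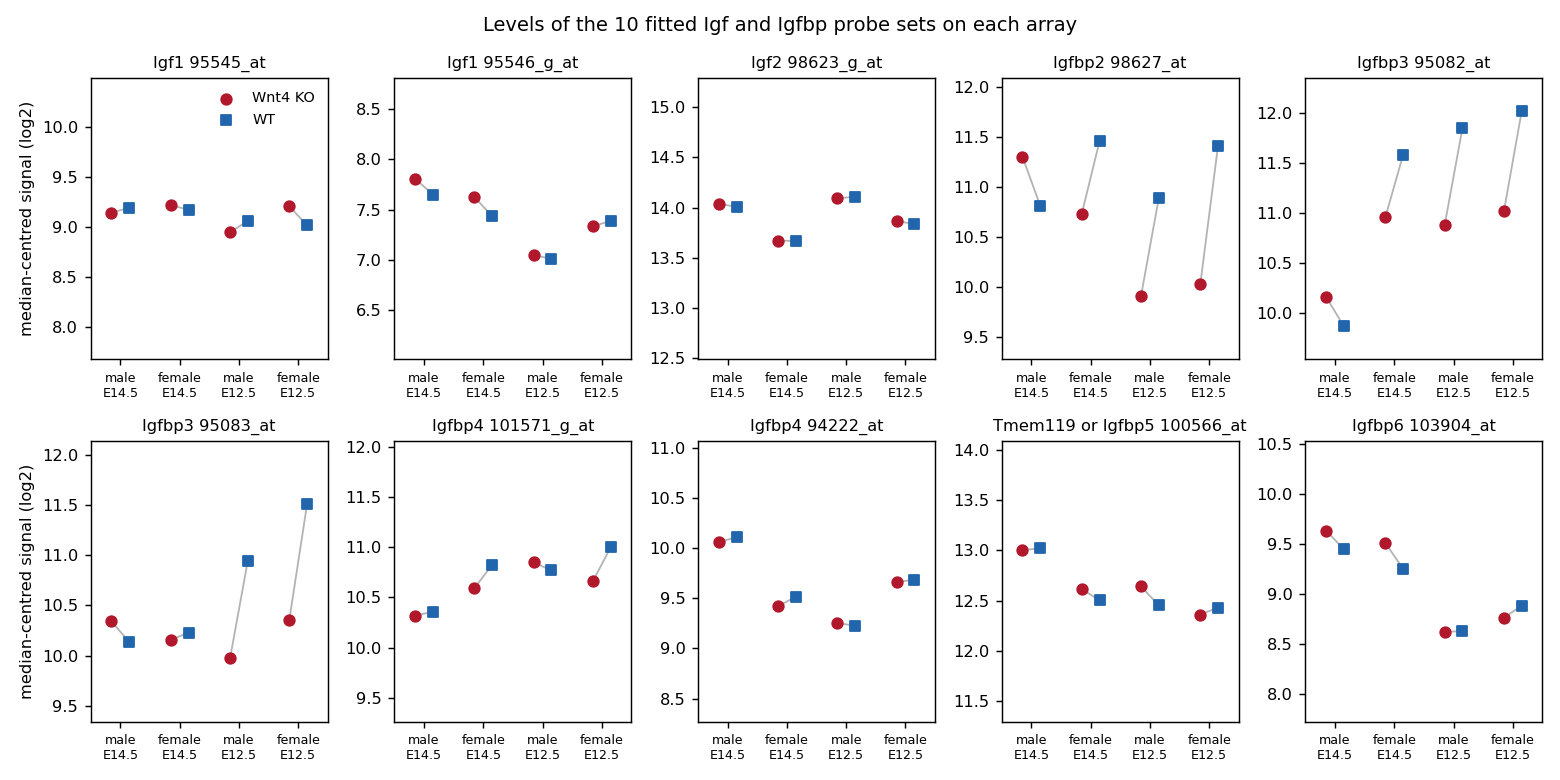
Median-centred log2 signal (vertical axis, each panel spanning the same number of log2 units) of the 10 fitted probe sets by sex and stage. Circles are KO arrays, squares WT arrays, 1 array per symbol, and a line joins each KO and WT pair. The 3 panels of Igfbp2 and Igfbp3 have the widest KO to WT gaps, with Igfbp2 at 10.03 in the KO and 11.41 in the WT female at E12.5.

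The first question was which of these transcripts depend on Wnt4. At E12.5, KO gonads of both sexes had about 2-fold less Igfbp2 and Igfbp3 signal than WT gonads of the same sex, while the IGF genes themselves showed no such gap. Only 1 of the 3 probe sets concerned passed the test, an Igfbp3 probe set. At E14.5 the KO minus WT differences of Igfbp2 and Igfbp3 were negative in females and positive in males. Igfbp3 95083_at was near 0 in those females, at -0.08. The female pair rests on the E14.5 array labelled WT female, and no KO effect at E14.5 passed.

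The peptide genes had small differences in every pair. Igf1 95545_at was at 9.14 in KO and 9.19 in WT males at E14.5 and at 9.22 in KO and 9.17 in WT females at E14.5. At E12.5 it was at 8.95 in KO and 9.06 in WT males and at 9.21 in KO and 9.02 in WT females. All 8 values lay within 0.27, and the sign of the KO minus WT difference varied between pairs.

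Igf2, a paternally expressed gene and the main fetal IGF, was read by 98623_g_at. It was at 14.04 in KO and 14.01 in WT males at E14.5, and at 13.67 in both KO and WT females at E14.5. At E12.5 it was at 14.09 in KO and 14.11 in WT males and at 13.87 in KO and 13.83 in WT females. The KO and WT arrays of a pair were closer to each other than males were to females. The highest value of any probe set on these arrays was between 14.2 and 14.6, and whether the Igf2 signal was close to saturation was not tested.

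Igfbp2 encodes a binding protein with a preference for IGF2 that is abundant in the fetus. Its probe set 98627_at was at 11.30 in KO and 10.81 in WT males at E14.5, and at 10.73 in KO and 11.45 in WT females at E14.5. At E12.5 it was at 9.91 in KO and 10.89 in WT males and at 10.03 in KO and 11.41 in WT females. The E12.5 KO arrays held the lowest values of all 8, and at that stage KO and WT arrays did not overlap. The KO minus WT difference was 0.49 in E14.5 males, -0.72 in E14.5 females, -0.97 in E12.5 males and -1.39 in E12.5 females. Among the fitted probe sets, 3 had a lower difference in E12.5 males and 5 in E12.5 females.

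Igfbp3 encodes the main IGF carrier of adult blood and had 2 probe sets. For 95082_at the values were 10.16 in KO and 9.87 in WT males at E14.5, and 10.96 in KO and 11.58 in WT females at E14.5. At E12.5 they were 10.88 in KO and 11.85 in WT males and 11.02 in KO and 12.02 in WT females. The WT arrays of E12.5 were the highest 2 of the 8, and the E14.5 males of both genotypes were the lowest. The KO minus WT difference was 0.29 in E14.5 males, -0.62 in E14.5 females, -0.97 in E12.5 males and -0.998 in E12.5 females.

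The other Igfbp3 probe set, 95083_at, was at 10.34 in KO and 10.14 in WT males at E14.5 and at 10.15 in KO and 10.23 in WT females at E14.5. At E12.5 it was at 9.97 in KO and 10.94 in WT males and at 10.35 in KO and 11.51 in WT females. The WT arrays of E12.5 again stood above the other 6. Its KO minus WT difference was 0.20 in E14.5 males, -0.08 in E14.5 females, -0.97 in E12.5 males and -1.15 in E12.5 females, so both Igfbp3 probe sets gave the E12.5 gap, while their values in E14.5 females were unlike.

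**Figure D2:**
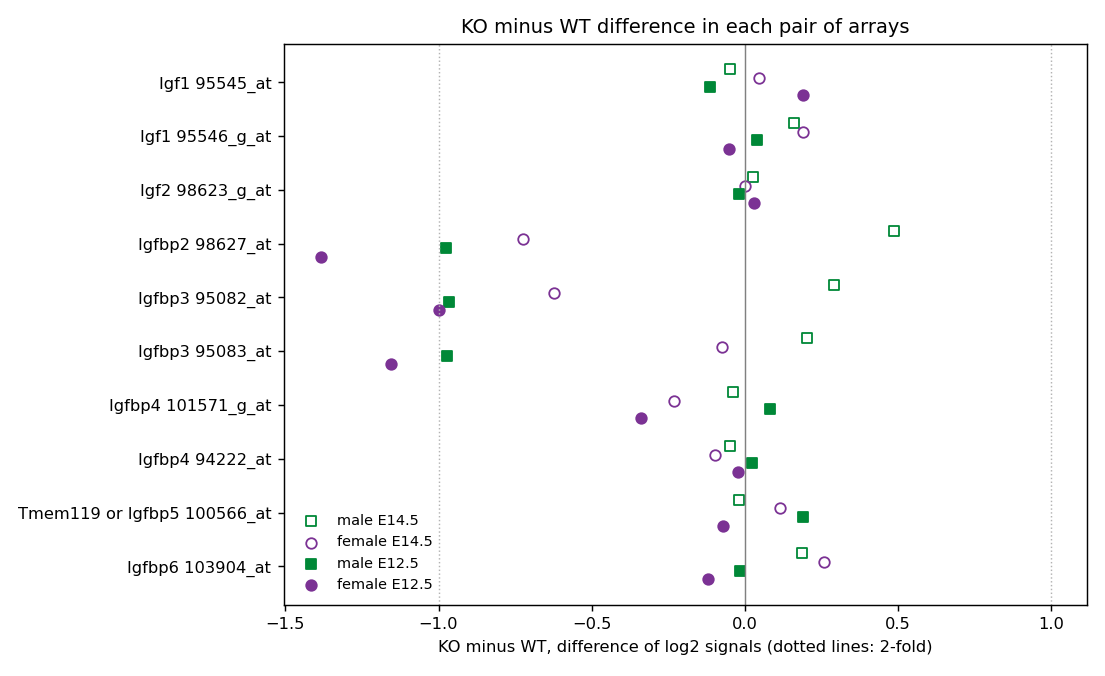
KO minus WT difference (horizontal axis, log2) of each fitted probe set (rows) in each of the 4 pairs of arrays. Open symbols are E14.5, filled symbols E12.5, squares males and circles females, and the dotted lines mark 2-fold. Only Igfbp2 and the 2 Igfbp3 probe sets approach or pass the dotted line at -1, with E12.5 values of -0.97 to -1.39, and their E14.5 male values are 0.20 to 0.49.

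The other 7 probe sets had KO minus WT differences between -0.34 and 0.26 in every pair. They included Igfbp4, whose protein holds back IGFs until a protease cuts it, and Igfbp6, whose protein prefers IGF2. Igfbp4 101571_g_at was at 10.32 in KO and 10.36 in WT males at E14.5, 10.59 in KO and 10.82 in WT females at E14.5, 10.85 in KO and 10.77 in WT males at E12.5, and 10.66 in KO and 11.00 in WT females at E12.5. Both KO female arrays were below the WT female array of their stage, and the male pairs were close together. The KO effect of 101571_g_at in females did not pass, at -0.28 ± 0.06 (limma, adjusted p = 0.4335). Its E14.5 female pair rests on the E14.5 array labelled WT female. For the other fitted Igfbp4 probe set, 94222_at, the female KO minus WT differences were -0.10 at E14.5 and -0.02 at E12.5. The probe set annotated to Tmem119 and Igfbp5 was at 13.00 in KO and 13.02 in WT males at E14.5, 12.62 in KO and 12.50 in WT females at E14.5, 12.64 in KO and 12.45 in WT males at E12.5, and 12.36 in KO and 12.43 in WT females at E12.5. Its KO and WT values differed less than its males and females did at E14.5.

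With the sexes as the only repeats of the genotype effect, limma gave a KO effect at E12.5 of -1.06 ± 0.10 (SE) for Igfbp3 95083_at with an adjusted p of 0.0433. That was 1 of 10 fitted probe sets of these genes called, against 0.0828% of all 8452 fitted probe sets (7 called, of which 2, or 0.0237%, were lower in KO). The call did not hold in 12 of 15 alternatives, and its adjusted p ranged from 1.3e-05 to 1 over them. Igfbp3 95082_at had -0.98 ± 0.20 with an adjusted p of 0.345, and Igfbp2 had -1.18 ± 0.27 with an adjusted p of 0.426. Over the 10 probe sets the median KO effect at E12.5 was -0.04, against 0 over all fitted probe sets.

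At E14.5 no probe set passed, which was 0 of 10 against 0% of all (limma), with 2 of the 10 and 353 of all at an unadjusted p under 0.05. The fitted KO effects at E14.5 lay between -0.17 and 0.22. They rest on the male pair, given above, once the E14.5 array labelled WT female is left out. The change of the KO effect between stages, E14.5 minus E12.5, was 1.13 ± 0.15 for Igfbp3 95083_at (adjusted p = 0.263), 0.82 ± 0.28 for Igfbp3 95082_at and 1.06 ± 0.38 for Igfbp2 (both adjusted p = 1), so 0 of 10 passed against 0% of all, with 3 of the 10 and 303 of all at an unadjusted p under 0.05. Without the E14.5 array labelled WT female these changes were 1.27, 1.27 and 1.67, with adjusted p of 0.166, 0.0845 and 0.269. Without the 2 E14.5 male arrays they were 0.99, 0.36 and 0.46.

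In males the KO effect over both stages was -0.24 ± 0.37 for Igfbp2, -0.34 ± 0.30 for Igfbp3 95082_at and -0.38 ± 0.37 for Igfbp3 95083_at. In females it was -1.05 ± 0.37, -0.81 ± 0.30 and -0.61 ± 0.37, with adjusted p of 0.436, 0.436 and 0.512. No probe set passed in either sex, 0 of 10 each against 0% of all (limma). At an unadjusted p under 0.05 there were 0 of the 10 and 405 of all in males, and 3 of the 10 and 962 of all in females. The KO effect of Igfbp2 in males minus that in females was 0.81 ± 0.52 (adjusted p = 0.521), or 1.14 (adjusted p = 0.738) without the E14.5 array labelled WT female, and 0 of 10 probe sets passed for this difference against 0% of all, with 1 of the 10 and 971 of all at an unadjusted p under 0.05. Without the E14.5 array labelled WT female the female effects rest on E12.5 and were -1.39 for Igfbp2, -0.998 for Igfbp3 95082_at and -1.15 for Igfbp3 95083_at, all with an adjusted p of 0.956.

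A set of 6 probe sets had E12.5 KO minus WT differences at least as low as -0.97 in males and -0.998 in females, and 3 of them were those of Igfbp2 and Igfbp3. This list was formed after the values were seen and carries no test. The other 3 were Irx3, a homeobox factor of the ovary's supporting cells, at -1.30 in males and -2.58 in females, Apcdd1, a membrane inhibitor of Wnt signals, at -1.12 in males and -1.57 in females, and Tpbg, a membrane glycoprotein, at -1.06 in males and -1.03 in females. All 6 had a positive difference in E14.5 males, of 0.78 for Irx3, 0.72 for Apcdd1 and 0.50 for Tpbg. Irx3 was under the floor in E14.5 WT males (6.57) and E12.5 KO males (6.93), so both of its male differences are lower bounds in size.

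**Figure D3:**
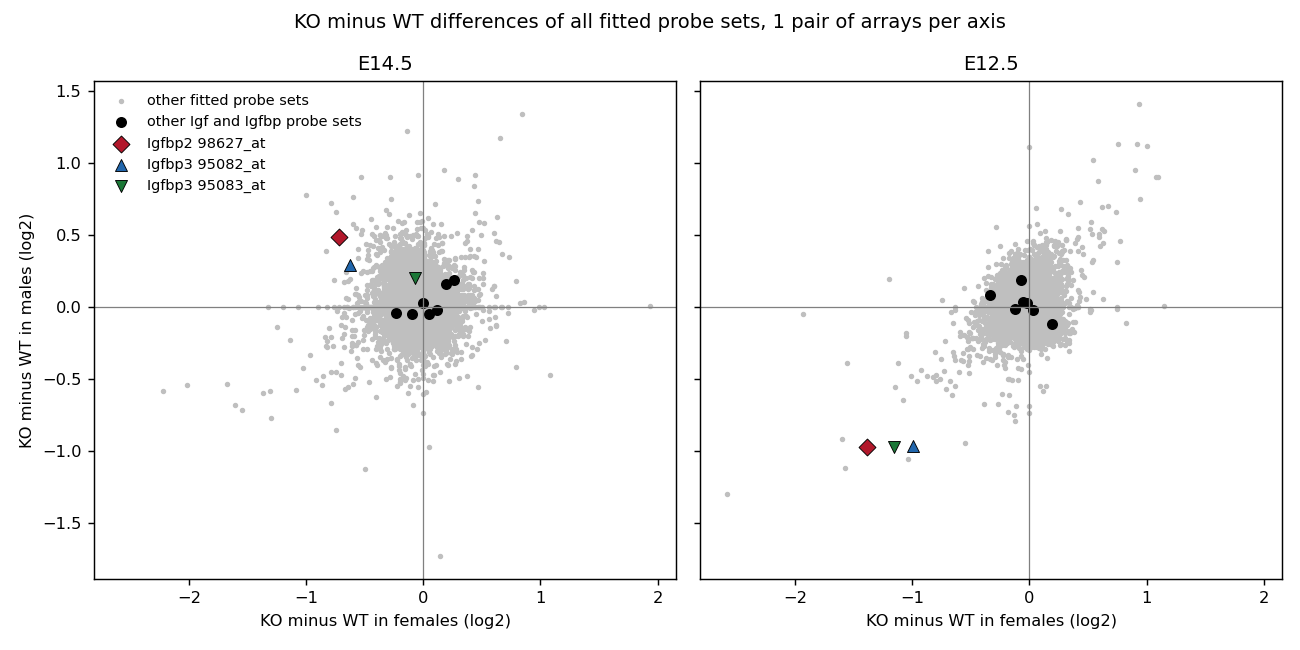
KO minus WT difference in males (vertical axis, log2) against that in females (horizontal axis, log2) for every fitted probe set, at E14.5 (left panel) and E12.5 (right panel). Each axis rests on 1 pair of arrays. Igfbp2 and both Igfbp3 probe sets lie apart from the grey cloud at the lower left at E12.5, near -0.97 in males, and above the horizontal zero line at E14.5.

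Several marker lists differed between KO and WT in the same pairs of arrays. Of 7 fitted pregranulosa markers, 1 was lower and 6 higher in KO than WT males at E14.5, and 6 were lower and 1 higher in KO females at E14.5. In KO males at E12.5, where Rspo1 had no value, 6 were lower and 0 higher. In KO females at E12.5, 6 were lower and 1 higher. Their summed linear signal was 2354 in KO and 2030 in WT males at E14.5, 2849 in KO and 4548 in WT females at E14.5, 1999 in KO and 2940 in WT males at E12.5, and 2592 in KO and 5447 in WT females at E12.5. The list includes Wnt4. It also includes Rspo1, which had no value on the KO male array at E12.5. The sum of 1999 for that array therefore leaves Rspo1 out, while the WT male sum of 2940 includes it, at 7.38 (log2). In the other pairs Rspo1 was higher in KO. It was at 7.84 against 7.19 in E14.5 males, 8.52 against 8.08 in E14.5 females and 8.30 against 7.88 in E12.5 females. The median KO minus WT difference of 7 mesonephros and duct markers was 0.10 in E14.5 males, -0.05 in E14.5 females, -0.06 in E12.5 males and -0.28 in E12.5 females. For 10 stroma and mesenchyme markers these medians were -0.02, 0.19, 0.06 and -0.00. For 4 nerve and neural crest markers they were 0.03, 0, 0.53 and 0.63, for 7 Sertoli markers -0.50, -0.40, 0 and 0.03, and for 6 Leydig and steroidogenic markers -0.56, -0.95, 0.35 and 0.08. The medians of the other 7 lists lay between -0.50 and 0.32. The nerve and neural crest medians were positive at E12.5 in both sexes, and the Sertoli and Leydig medians were negative at E14.5 in both. All female E14.5 values of these lists rest on the E14.5 array labelled WT female, whose Eif2s3y and Leydig values are given above. With that array left out, no female pair of that stage remains. The part of all these lists in the Igfbp2 and Igfbp3 differences was not tested. In whole gonads, fewer cells of a type and less RNA per cell cannot be told apart.

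The next question was how the genes changed as the gonads developed. In males, 6 of the 10 probe sets passed for E14.5 minus E12.5, 4 higher and 2 lower, against 77.8% of all fitted probe sets (38% higher and 39.9% lower). The scaling matters here, because without centring the median of all probe sets in males was -0.69, while with centring it was -0.00.

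Igfbp6 was higher at E14.5 in both sexes. It was at 9.63 in KO and 9.45 in WT males at E14.5, against 8.62 in KO and 8.63 in WT males at E12.5, and at 9.51 in KO and 9.25 in WT females at E14.5, against 8.76 in KO and 8.88 in WT females at E12.5. No E14.5 array overlapped an E12.5 array. The difference was 0.91 ± 0.11 in males (adjusted p = 0.0012) and 0.56 ± 0.11 in females (adjusted p = 0.0317). Neither call held without centring, where the values were 0.13 in males (adjusted p = 0.302) and 0.30 in females (adjusted p = 0.0586). It was the 1 of 10 probe sets that passed in females, against 23.1% of all and 8.41% higher at E14.5. Without the E14.5 array labelled WT female the female value was 0.75 with an adjusted p of 0.113, and the female call was lost in 11 of 15 alternatives.

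Igfbp4 had probe sets that went opposite ways in males. 94222_at was at 10.06 in KO and 10.11 in WT males at E14.5, against 9.25 in KO and 9.23 in WT males at E12.5, a difference of 0.85 ± 0.06 (adjusted p = 1.8e-04). For 101571_g_at the E14.5 minus E12.5 difference in males was -0.47 ± 0.06 (adjusted p = 0.0015). Without centring the male values were 0.07 (adjusted p = 0.361) for 94222_at, which lost its call, and -1.25 for 101571_g_at, and after quantile normalization that of 101571_g_at was -0.14 (adjusted p = 0.0812), so its call was lost there. In females 94222_at was at 9.42 in KO and 9.52 in WT at E14.5, against 9.66 in KO and 9.69 in WT at E12.5, below E12.5 on both arrays. The stage difference in males minus that in females was 1.05 ± 0.08 for 94222_at (adjusted p = 5.9e-04) and -0.35 ± 0.09 for 101571_g_at (adjusted p = 0.0188). Without the E14.5 array labelled WT female these were 1.09 (adjusted p = 0.0078) and -0.40 (adjusted p = 0.0571). The value of 94222_at was 0.52 (adjusted p = 0.0030) without centring, and that of 101571_g_at was -0.88 without centring and -0.10 (adjusted p = 0.304) after quantile normalization, with the call lost in 8 of 14 alternatives.

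Igfbp3 95082_at fell with stage in males by 1.35 ± 0.30 on the log2 scale (adjusted p = 0.0114), and by 2.13 without centring. The difference was -0.72 in KO males and -1.98 in WT males. In females the pair differences were -0.06 in KO and -0.43 in WT. The other probe set, 95083_at, had stage differences of 0.37 in KO males, -0.81 in WT males, -0.20 in KO females and -1.28 in WT females. Its fitted stage difference was -0.22 ± 0.37 in males and -0.74 ± 0.37 in females (adjusted p = 0.209). With centring, the probe sets of this gene thus differed in which sex had the more negative stage value. The female value of 95083_at without the E14.5 array labelled WT female was -0.20, from the KO pair alone. The stage difference in males minus that in females passed for neither (limma). It was -1.10 ± 0.43 for 95082_at (adjusted p = 0.0731) and 0.52 ± 0.52 for 95083_at (adjusted p = 0.411). Without centring that of 95082_at was -1.63 (adjusted p = 0.0122). For 95083_at the stage differences were then -0.998 in males (adjusted p = 0.0339) and -0.990 in females (adjusted p = 0.0475), nearly alike.

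With centring, Igfbp2 had positive stage values in KO gonads and values near 0 in WT gonads. That contrast did not pass as the change of the KO effect between stages. The E14.5 minus E12.5 difference of Igfbp2 was 1.39 in KO males and -0.07 in WT males. In females it was 0.70 in KO and 0.04 in WT. The fitted stage difference was 0.66 ± 0.37 in males (adjusted p = 0.163). That value was -0.07 without either KO male array and -0.12 without centring. On deposited values WT males were at 10.38 at E14.5 and 11.22 at E12.5, and WT females at 11.36 and 11.59. KO males were at 10.83 and 10.23, and KO females at 10.69 and 10.23. Without centring the WT values were thus lower at E14.5, so the near-0 WT values depend on the scaling.

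Igf1 95546_g_at was at 7.81 in KO and 7.65 in WT males at E14.5, against 7.05 in KO and 7.01 in WT males at E12.5, close to the floor. In females it was at 7.63 in KO and 7.43 in WT at E14.5, against 7.33 in KO and 7.39 in WT at E12.5. Its stage difference was 0.70 ± 0.07 in males (adjusted p = 7.1e-04), -0.08 without centring, and it was 0.53 ± 0.11 larger than in females (adjusted p = 0.0088), or 0.41 (adjusted p = 0.034) without the E14.5 array labelled WT female. On deposited values without centring that gap between the sexes was 0.0053 (adjusted p = 0.969), and its call was lost in 6 of 14 alternatives. The lead Igf1 probe set, 95545_at, did not pass in either sex with centring, while in males it was -0.62 without centring (adjusted p = 2.5e-04) and 0.36 after quantile normalization (adjusted p = 0.0053), in opposite directions. The probe set annotated to Tmem119 and Igfbp5 had 0.47 ± 0.08 in males (adjusted p = 0.0044). Without centring it passed in the opposite direction, at -0.31 (adjusted p = 0.0125). Igf2 did not pass for stage in either sex with centring. It passed as lower at E14.5 under both other scalings, at -0.86 in males and -0.43 in females without centring (adjusted p = 1.4e-05 and 0.0017), and at -0.28 in males and -0.27 in females after quantile normalization (adjusted p = 0.0033 and 0.0223). Of the 10 probe sets, 3 passed for the stage difference in males minus that in females, 2 of them higher and 1 lower, against 69% of all (35.2% higher and 33.8% lower).

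**Figure D4:**
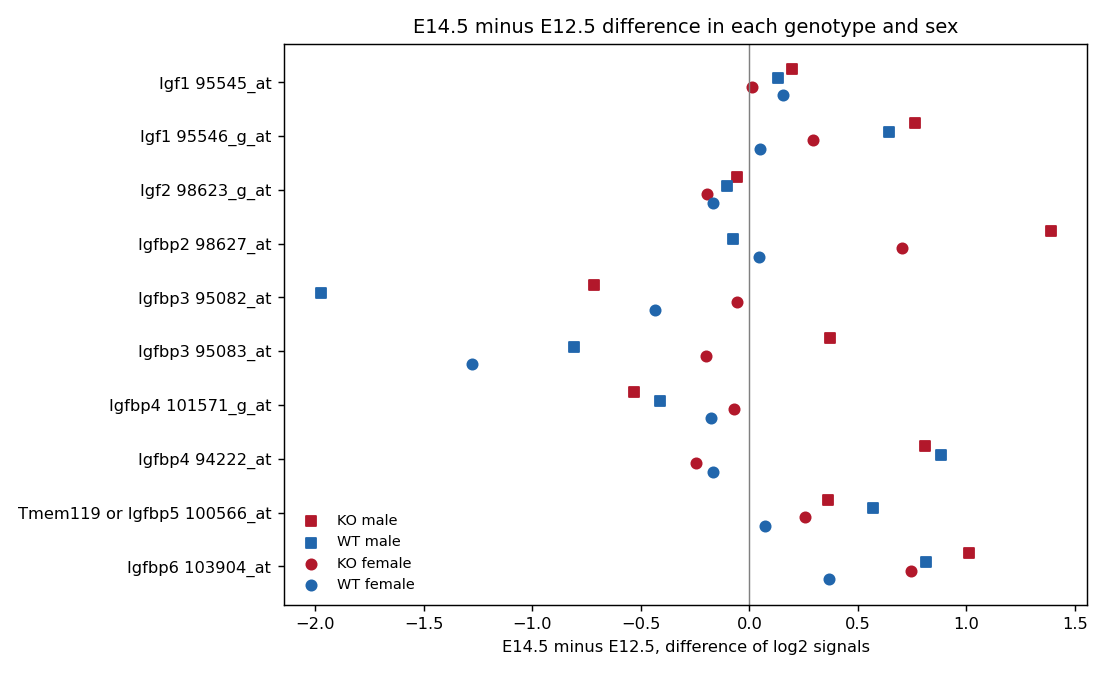
E14.5 minus E12.5 difference (horizontal axis, log2) of each fitted probe set (rows) in each genotype and sex, 1 pair of arrays per symbol. Squares are males, circles females, red KO and blue WT. Values are median-centred. Igfbp6 is positive in all 4. Igfbp2 is positive in KO (0.70 and 1.39) and near 0 in WT, the latter only with centring. The Igfbp4 probe sets of males lie on opposite sides of 0.

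The sexes were compared within each stage, male minus female. At E14.5, 6 of 10 probe sets passed, 4 higher and 2 lower in males, against 74.7% of all (38.2% higher and 36.5% lower). The 2 Igfbp3 probe sets differed here. For 95083_at the value was 0.05 ± 0.10 (adjusted p = 0.712), with 0.26 after quantile normalization (adjusted p = 0.019) and -0.34 without centring (adjusted p = 0.0075). Igfbp3 95082_at was lower in males by a difference of -1.25 ± 0.20 (adjusted p = 0.0013), with 10.16 and 9.87 in KO and WT males and 10.96 and 11.58 in KO and WT females. Without the E14.5 array labelled WT female it was -0.80 (adjusted p = 0.0199). Igfbp4 94222_at was 0.62 ± 0.08 higher (adjusted p = 5.5e-04), 0.64 without that array (adjusted p = 0.0282), and 0.23 without centring (adjusted p = 0.0264). Igfbp4 101571_g_at was at -0.37 ± 0.12 (adjusted p = 0.0289) and the probe set of Tmem119 and Igfbp5 at 0.45 ± 0.11 (adjusted p = 0.0084). The first of these was -0.76 without centring and -0.16 after quantile normalization (adjusted p = 0.132), and the second 0.06 without centring (adjusted p = 0.569), so each lost its call under 1 other scaling.

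The lead Igf1 probe set, 95545_at, did not pass at E14.5 with centring, at -0.03 ± 0.10 (adjusted p = 0.837). It was at -0.42 without centring (adjusted p = 0.012). Igf2 and Igf1 95546_g_at passed narrowly at E14.5, with 0.35 ± 0.11 (adjusted p = 0.0237) and 0.20 ± 0.06 (adjusted p = 0.0165). Both turned negative without centring, at -0.03 for Igf2 (adjusted p = 0.741) and -0.19 for Igf1 95546_g_at (adjusted p = 0.0363). The Igf1 probe set thus passed there in the opposite direction. Igf2 was at -0.13 after quantile normalization. Without the E14.5 array labelled WT female, the calls of Igfbp3 95082_at and Igfbp4 94222_at held and the others did not. Calls were then also fewer over all fitted probe sets.

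At E12.5, 3 of 10 probe sets passed, all lower in males, against 9.81% of all and 4.48% lower in males. They were Igfbp4 94222_at at -0.43 ± 0.08 (adjusted p = 0.0301), Igfbp3 95083_at at -0.47 ± 0.10 (adjusted p = 0.0411) and Igf1 95546_g_at at -0.33 ± 0.06 (adjusted p = 0.0248). In each, both male arrays were below both female arrays of the stage except for Igfbp3 95083_at, where the WT male (10.94) was above the KO female (10.35). All 3 calls were lost when any 1 array was left out, and the adjusted p reached 0.388 over all alternatives. That of Igf1 95546_g_at was also lost without centring, at -0.19 (adjusted p = 0.07). The other fitted probe sets of these 3 genes did not pass. Igfbp4 101571_g_at was at -0.02, Igfbp3 95082_at at -0.16 (adjusted p = 0.685) and Igf1 95545_at at -0.11 (adjusted p = 0.568). The gap between the 3' and 5' actin probe sets, a measure of RNA quality, was 1.09 in KO and 1.37 in WT males at E14.5, against 0.55 in KO and 0.77 in WT females, and 1.10 in KO and 0.96 in WT males at E12.5, against 0.49 in KO and 0.48 in WT females. Its part in the sex differences was not tested.

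The wider IGF pathway was followed through a list of 57 genes, of which 41 were on the array and 31 were fitted. None passed in any of the 6 KO comparisons (limma). At an unadjusted p under 0.05 there were 1 to 5 of the 31, and 303 to 971 of all 8452 fitted probe sets. The adaptor Grb10, an imprinted inhibitor of IGF and insulin signalling, had a KO effect at E14.5 of 0.54 ± 0.12 (adjusted p = 0.482), or 0.35 (adjusted p = 0.512) without the E14.5 array labelled WT female. Its values at that stage were 10.29 in KO and 9.94 in WT males and 9.38 in KO and 8.64 in WT females.

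For stage in females 2 pathway genes rose and 8 fell, 32.3% of the 31 against 23.1% of all fitted probe sets. All 10 kept their signs without centring and without the E14.5 array labelled WT female, but with that array left out 0 of 31 passed (limma). Htra1, a protease that cuts binding proteins, rose by 0.71 ± 0.12 (adjusted p = 0.0217), and Pdpk1, a kinase that activates Akt, by 0.35, which was 0.10 without centring (adjusted p = 0.34). Igf2bp1, which binds Igf2 mRNA, fell by 1.13 ± 0.11 (adjusted p = 0.0107), and Grb10 by 1.05 ± 0.23 (adjusted p = 0.0388). The clearance receptor Igf2r fell by 0.29, the imprinted transcription factor Plagl1 by 0.36 and Ctcf, the factor that insulates the Igf2 locus, by 0.52. Plat, Pik3ca and Tsc2 fell by 0.49, 0.46 and 0.42. Other probe sets of these genes did not all pass, with 92501_s_at of Plagl1 at -0.27, 92452_at of Pik3ca at -0.14, 102063_at of Pdpk1 at 0.19 and 97952_at of Tsc2 at 0.13, the last of opposite sign, while 93690_at of Grb10 (-0.78) and 97953_g_at of Tsc2 (-0.46) passed. The list median was -0.06 against -0.02 over all probe sets.

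In males 12 pathway genes rose and 13 fell with stage, 80.6% of the 31 against 77.8% of all, a share near the background, and 7 of these 25 changed sign under another scaling. Among those that did not, Igf1r fell by 0.51 ± 0.08 (adjusted p = 0.0028), Igf2r by 1.05 ± 0.06 (adjusted p = 1.3e-04) and Igf2bp1 by 1.37 ± 0.11 (adjusted p = 3.2e-04). The Plagl1 probe set 92502_at was under the floor in both E14.5 male groups, at 6.48 in KO and 6.79 in WT, against 10.17 in KO and 9.99 in WT males at E12.5, at least 8.56-fold lower (adjusted p = 6.6e-05). The other Plagl1 probe set, 92501_s_at, was above the floor on all 8 arrays, at 7.97 in KO and 8.23 in WT males at E14.5, against 8.95 in KO and 8.72 in WT males at E12.5, a difference of -0.74 ± 0.15 (adjusted p = 0.0075), so the size of the Plagl1 fall differed between its probe sets. Igfbp7, a binding-protein-like gene of low IGF affinity, rose by 1.04 ± 0.11 (adjusted p = 8.3e-04), a call lost without centring, at 0.26 (adjusted p = 0.0703). The list median was 0.14 against -0.00 over all probe sets.

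Between the sexes at E12.5, 5 pathway genes were higher and 1 lower in males, 19.4% of the 31 against 9.81% of all, with no change of sign under another scaling. With the E14.5 array labelled WT female left out, 0 of 31 passed (limma) and all 6 kept their signs. Igf1r, the receptor through which IGF1 and IGF2 act, was at 9.86 in KO and 9.94 in WT males, against 9.37 in KO and 9.42 in WT females, a difference of 0.50 ± 0.10 (adjusted p = 0.0362). Plagl1, Stc2, Grb2 and Tsc2 were 0.46, 0.46, 0.39 and 0.38 higher, and Htra1 was at -0.54. The other Plagl1 probe set was at 0.17 and those of Tsc2 at 0.25 and 0.29, none of which passed. At E14.5, 15 were higher and 10 lower in males, 80.6% against 74.7% of all, and 3 of the 25, Igf1r among them, changed sign without centring. Without the E14.5 array labelled WT female all 25 kept their signs, and fewer passed, both of these and of all fitted probe sets. For the stage difference in males minus that in females 12 genes passed higher and 9 lower, 67.7% against 69% of all, and 3 of the 21 changed sign under another scaling. All 21 kept their signs with the E14.5 array labelled WT female left out, but not all kept their calls.

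Some genes had patterns across the arrays like those of the members. These are correlations over 8 arrays, or over the 6 other than the E14.5 males, which share stage, sex and scaling, and they describe the arrays only. Igfbp2 was most like Apcdd1 (r = 0.80), Wnt4 (0.78) and Pax8 (0.77) over 8 arrays, and Irx3 (0.97), Apcdd1 (0.97) and Tnfrsf19 (0.90) over 6. Igfbp3 95082_at was most like Tle1 (0.98), Pls3 (0.96) and Gata2 (0.95) over 8 arrays, and Tpbg (0.97), Thy1 (0.95) and Wnt4 (0.95) over 6. Igf2 was most like Nr2f2 on both sets (0.99), and Igfbp6 most like H2-Bl (0.98) over 8 and Inhba (0.997) over 6. The candidates were the 2637 fitted probe sets of other genes with a range of at least 1 log2 unit over 8 arrays, and 286 over 6.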

How the data were processed

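RNA of 8 embryonic gonad samples was measured on 8 arrays, 1 per group. The authors deposited log2 summaries, made with MAS5 per the submitters' processing notes. The sources used here give no MAS5 version, scaling target or background step. In the KO male E12.5 column 14 cells held spreadsheet dates (41278 to 41284) and were set to missing, none in a probe set of the 7 genes. Arrays were centred on the mean of the array medians (7.51), values under the 40th percentile were set to that floor (6.99), and the 8452 probe sets above it on at least 2 arrays, without 66 control probe sets, were fitted. All comparisons used limma 3.58.1 in R 4.3.3 with variances moderated along signal intensity, two-sided, and p-values adjusted by Benjamini-Hochberg at 0.05. Sex by genotype plus sex by stage gave effects within a sex, and stage by genotype plus stage by sex gave effects within a stage. Each model has 2 residual degrees of freedom, from genotype effects that differ between stages or sexes, to which 2.77 and 4.38 prior degrees of freedom were added. Errors are SEs. p-values therefore measure a spread between arrays, not between embryos, and a genotype effect present in 1 sex or stage counts as error. The code was tested on simulated data. Alternatives were deposited values without centring, quantile normalization, no floor, a floor at the 25th percentile, no filter, no intensity trend, no E14.5 males, and each array left out. Probe sets annotated to the 7 genes were all named, fitted differences where at least 0.5 or passing, and pathway genes where they passed. The members and gene lists were chosen with earlier results of these data known. Gene names are those of the platform annotation.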

Additional observations from a re-analysis of the deposited data

Results flagged for a closer look

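For 3 probe sets the E14.5 minus E12.5 difference in males minus that in females passed the interaction test of the limma fit. The values were 1.05 for Igfbp4 94222_at (0.85 in males, -0.21 in females), -0.35 for Igfbp4 101571_g_at (-0.47 in males, -0.12 in females) and 0.53 for Igf1 95546_g_at (0.70 in males, 0.17 in females). The call of 94222_at held in 14 of 14 alternatives. That of 101571_g_at was lost in 8 of 14, at -0.10 (adjusted p = 0.304) after quantile normalization, and that of Igf1 95546_g_at in 6 of 14, at 0.0053 (adjusted p = 0.969) on deposited values. These results rest on the 2 E14.5 male arrays, and a shift of those arrays as a whole and a change of the tissue cannot be told apart. No group had enough arrays to look for an outlying sample.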

How the results depend on the processing

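The 33 fitted values named for the 7 genes were recomputed under up to 15 alternatives each, 477 values in all. Of these, 347 kept their direction and side of the threshold, 107 kept the direction and lost the call, 10 gained a call and 13 changed sign. The cause of these changes was not tested. For the KO effect at E12.5, 1 member probe set was called, against 0 with quantile normalization, without the low-value filter, without the intensity trend and without the E14.5 males, 3 without a floor, and 0 with any single array left out. For the KO-by-stage difference there were 0, and 2 without a floor. For stage in females there was 1, against 4 on deposited values, 2 with quantile normalization, 2 without a floor, 0 without the filter, 0 without the E14.5 males, and 0 with any single array left out. For stage in males there were 6, and 2 to 6 over single arrays left out, the lowest without the WT male at E12.5 and 3 without the KO male at E12.5. For stage-by-sex there were 3, against 5 on deposited values and 5 without a floor, and 1 to 3 over single arrays left out, the lowest without the WT male at E12.5. For sex at E12.5 there were 3, against 0 without the filter, 1 without the intensity trend, 0 without the E14.5 males, and 0 with any single array left out. For sex at E14.5 there were 6, against 3 without the filter, and 2 to 6 over single arrays left out, with 2 without either E14.5 female and 3 without the WT male at E14.5.

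On deposited values, signs turned for stage in males of the probe set of Tmem119 and Igfbp5 (-0.31), Igf1 95546_g_at (-0.077) and Igfbp2 (-0.12), for stage-by-sex of Igfbp3 95083_at (-0.0080), and for sex at E14.5 of Igf1 95546_g_at (-0.19) and Igf2 (-0.035, and -0.13 with quantile normalization). With single arrays left out, stage in males of Igfbp2 ranged from -0.074 to 1.39, negative without either KO male, and stage-by-sex of Igfbp3 95083_at from -0.068 to 1.11, negative without either WT female (-0.02) or either KO male. Over the whole table the KO effect at E12.5 gave 7 calls, 0 to 67 over the alternatives, that at E14.5 gave 0, 0 to 72, the KO-by-stage difference 0, 0 to 63, stage in females 1949, 0 to 5156, sex at E12.5 829, 0 to 2240, and sex at E14.5 6314, 4026 to 7691. The male stage, stage-by-sex and E14.5 sex comparisons could not be made without the E14.5 males. Omitting an array leaves a group pair to 1 comparison, whose spread is taken from the other groups. No paired analysis was possible because each group had 1 array. Without replicates, a difference between 2 arrays cannot be separated from a difference between genotypes, and signals near the floor limit the low probe sets.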

Other observations

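Igfbp2 and Igfbp5 are neighbours in the RefSeq gene order, as are Igfbp3 and Igfbp1. The KO minus WT differences of Igfbp2 at E12.5 were -0.97 in males and -1.39 in females, against 0.19 in males and -0.07 in females for the probe set annotated to Tmem119 and Igfbp5. Both Igfbp1 probe sets were under the floor on all 8 arrays. Ins2, the insulin gene next to Igf2, also had a probe set under the floor on all 8 arrays, at 4.15 to 4.96. That probe set was not fitted and gave no stage value. The fitted Ins2 probe set was at 8.67 in KO and 8.94 in WT males at E14.5. At E12.5 it was at 7.69 in KO and 7.60 in WT males. Its stage difference was 1.16 ± 0.10 in males (limma, adjusted p = 3.2e-04), and 0.38 without centring (adjusted p = 0.0117), on a probe set whose male E14.5 values rest on the arrays that stood apart. It was 1.01 ± 0.14 larger than in females (adjusted p = 0.0026), and 0.48 larger without centring (adjusted p = 0.0232).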
